A study of Homo sapiens with 18 samples.

Results

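The 10 genes described here, ACTA2, TAGLN, CNN1, MYL9, TPM1, TPM2, CALD1, ACTG2, MYH9 and MYOCD, belong to the contractile program of fibroblasts that take on a myofibroblast state. All but MYOCD encode parts of the contractile apparatus, and MYOCD encodes a coactivator of their transcription. They were listed by name, with earlier results of these data known, and each symbol matched 1 of the 57500 genes of the count table. All 10 passed the filter on low counts, which left 16994 genes for testing. RNA-seq was carried out on IMR90, an established line of human embryonic lung fibroblasts, in 18 libraries that fall into 6 groups of 3. Proliferating cells (Prol) and cells made senescent by irradiation (Sen (IR)) had their mitochondria. The other 4 groups were irradiated and then given CCCP, an uncoupler that triggers the removal of mitochondria in cells overexpressing Parkin: CCCP alone (Sen (IR) + CCCP), with acetate (Sen (IR) + CCCP + acetate), with mtDNA (Sen (IR) + CCCP + mtDNA), or with both. According to the study's methods, CCCP was given from the day after irradiation, acetate was added once mitochondria had been cleared, and mtDNA was transfected late in the culture. The labels name the cells only as IMR90, so they do not say which groups carried the Parkin transgene, and they do not say whether the 3 replicates of a group were separate cultures. The study's methods describe IMR90 overexpressing Parkin for the removal of mitochondria. Its legends for RNA-seq heat maps of cells given CCCP give n = 3, as a number of independent experiments. The p-values measure the spread between these libraries.

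In a myofibroblast, bundles of actin carrying the smooth muscle isoform α-SMA slide along myosin and pull on the surrounding matrix, which is how these cells close wounds and stiffen scarred lung. Transcription of this set depends on serum response factor (SRF), which binds a sequence called the CArG box and works with the myocardin family of coactivators, whose members are MYOCD, MRTFA and MRTFB. MRTFA and MRTFB are held by free actin monomers and enter the nucleus when actin polymerizes, and TGF-β is the best known signal for the set.

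ACTA2 (chromosome 10, 88935074-88991339, minus strand, GRCh38 as annotated by GENCODE) encodes α-SMA, and ACTG2 (chromosome 2, 73892314-73919865, plus strand) encodes the enteric smooth muscle γ-actin, which differs from it in very few residues. TAGLN (chromosome 11, 117199370-117207464, plus strand) encodes SM22α, an actin cross-linker. CNN1 (chromosome 19, 11538767-11550323, plus strand) encodes calponin and CALD1 (chromosome 7, 134744252-134970729, plus strand) encodes caldesmon, both of which bind thin filaments and restrain actomyosin. TPM1 (chromosome 15, 63042620-63071915, plus strand) and TPM2 (chromosome 9, 35681992-35690056, minus strand) encode tropomyosins, the coiled coils that lie along actin. MYL9 (chromosome 20, 36541497-36551447, plus strand) encodes the regulatory light chain that is phosphorylated to start contraction, and MYH9 (chromosome 22, 36281280-36388010, minus strand) encodes the heavy chain of non-muscle myosin IIA, which nearly all cells make. MYOCD (chromosome 17, 12665890-12768949, plus strand) encodes myocardin. TPM1 has 39 annotated transcripts and CALD1 has 24, among them smooth muscle and non-muscle forms, and counts per gene do not tell these apart.

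The windows of 250 bases upstream of the annotated start site (GRCh38 genome, canonical GENCODE transcript) were searched on both strands for a CArG box, for the MCAT motif CATTCC bound by TEAD factors, and for TATAAA. A CArG box of the strict form lay in 3 of the 10 windows, that of ACTG2 among them, against 1.09% of the windows of 16812 tested genes. Counting also a form in which 1 of the inner A or T bases is G or C, 4 of 10 had a match, ACTA2 and ACTG2 among them, against 6.33% of all windows. CATTCC or its complement lay in the windows of ACTA2, TPM1, CALD1 and MYH9, against 9.61% of all windows, and TATAAA or its complement in that of ACTG2 alone, against 7.07%. The windows of the 2 smooth muscle actins are shown 5′ to 3′ because ACTG2 and ACTA2 are among the members with the largest changes, with the CArG matches in capitals. They lie at chr10:88952774-88953023 (ACTA2, minus strand) and chr2:73892758-73893007 (ACTG2, plus strand).
ACTA2: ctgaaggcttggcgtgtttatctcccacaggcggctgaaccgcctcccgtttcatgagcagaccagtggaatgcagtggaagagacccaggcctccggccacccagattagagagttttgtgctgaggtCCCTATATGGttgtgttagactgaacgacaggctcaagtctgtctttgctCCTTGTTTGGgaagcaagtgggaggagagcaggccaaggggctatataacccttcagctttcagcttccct
ACTG2: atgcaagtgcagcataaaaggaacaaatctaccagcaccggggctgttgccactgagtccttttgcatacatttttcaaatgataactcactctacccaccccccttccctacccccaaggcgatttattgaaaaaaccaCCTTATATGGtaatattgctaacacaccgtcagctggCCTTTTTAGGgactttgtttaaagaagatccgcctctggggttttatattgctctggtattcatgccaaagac
The matches begin 121 and 71 bases before the start site in ACTA2, both of the form with 1 inner G or C. They begin 110 and 73 bases before it in ACTG2. These matches are descriptions of the letters in the windows and no binding was measured.

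Total counts ran from 24624886 to 46224280 per library. The mtDNA-encoded genes took 1.76% to 2.92% of the counts in the 6 libraries of Prol and Sen (IR) and 0.0463% to 0.238% in the 12 given CCCP. The highest of these 12 was replicate 2 of the group given both, at 0.238% against 0.0642% and 0.0626% in its fellow replicates, and results that rest on that library are given with and without it. All 10 of a list of fibroblast markers (collagens I and III, DCN, LUM, PDGFRA, PDGFRB, THY1, VIM and S100A4) were at 1 TPM or more in every group, and their summed level fell from 15990–18040 TPM in Prol to 4283–4409 TPM with acetate. Of 8 markers of mature smooth muscle and pericytes, MYH11 and KCNMB1 were under 1 TPM in every group and DES in all but Prol, while the sum of the 8 was 302–332 TPM in Prol, 199–236 in Sen (IR), 123–130 in Sen (IR) + CCCP and 326–347 with acetate. In Prol, LMOD1, itself a smooth muscle contractile gene, led that sum at 149.7 ± 1.9 TPM with MCAM at 88.0 ± 4.8. LMOD1 fell to 3.86 ± 0.71 TPM after CCCP while MCAM was at 87.7 ± 1.4, and with acetate MCAM was at 233 ± 8.8 and LMOD1 at 24.5 ± 2.7. The part of these cells' markers in the results was not tested. All 7 skeletal muscle markers and all 6 cardiac markers were under 1 TPM in every group. Of the 6 endothelial markers only TEK was well over 1 TPM, and PECAM1, CDH5, VWF and CLDN5 were under 1 TPM throughout. Of the epithelial markers CDH1 and ESRP1 were under 1 TPM in every group, while KRT18 ran from 26.9 to 97.3 TPM, KRT19 from 2.18 to 46.5, KRT8 from 4.15 to 13.3 and EPCAM from 0.612 to 4.76. The sum of the 6 was 143–159 TPM in Prol, 51.4–63.4 in Sen (IR), 47.2–50.4 after CCCP and 37.6–40.9 with acetate, and its part in the results was not tested. Of the leukocyte markers PTPRC, CD3E and LYZ were under 1 TPM in every group and CD68 ran from 1.23 to 4.31 TPM. In bulk RNA, fewer cells of a type and less RNA per cell cannot be told apart.

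Per length, the 10 genes together took 1.00% ± 0.026 of all TPM in Prol (SD, n = 3). The share was 0.718% ± 0.022 in Sen (IR), 0.259% ± 0.0026 in Sen (IR) + CCCP, 0.433% ± 0.017 with acetate, 0.248% ± 0.0026 with mtDNA and 0.480% ± 0.077 with both. In Prol the TPM ran from 1652 for CALD1, 1531 for MYL9, 1422 for MYH9, 1389 for TPM2 and 1250 for TAGLN, through 1069 for ACTA2, 991 for ACTG2 and 529 for TPM1, down to 173 for CNN1 and 8.33 for MYOCD. In Sen (IR) + CCCP the leading genes by TPM were CALD1 (736), MYH9 (604) and TPM2 (602), ACTA2 stood at 69.5 and ACTG2 at 29.6.

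**Figure D1:**
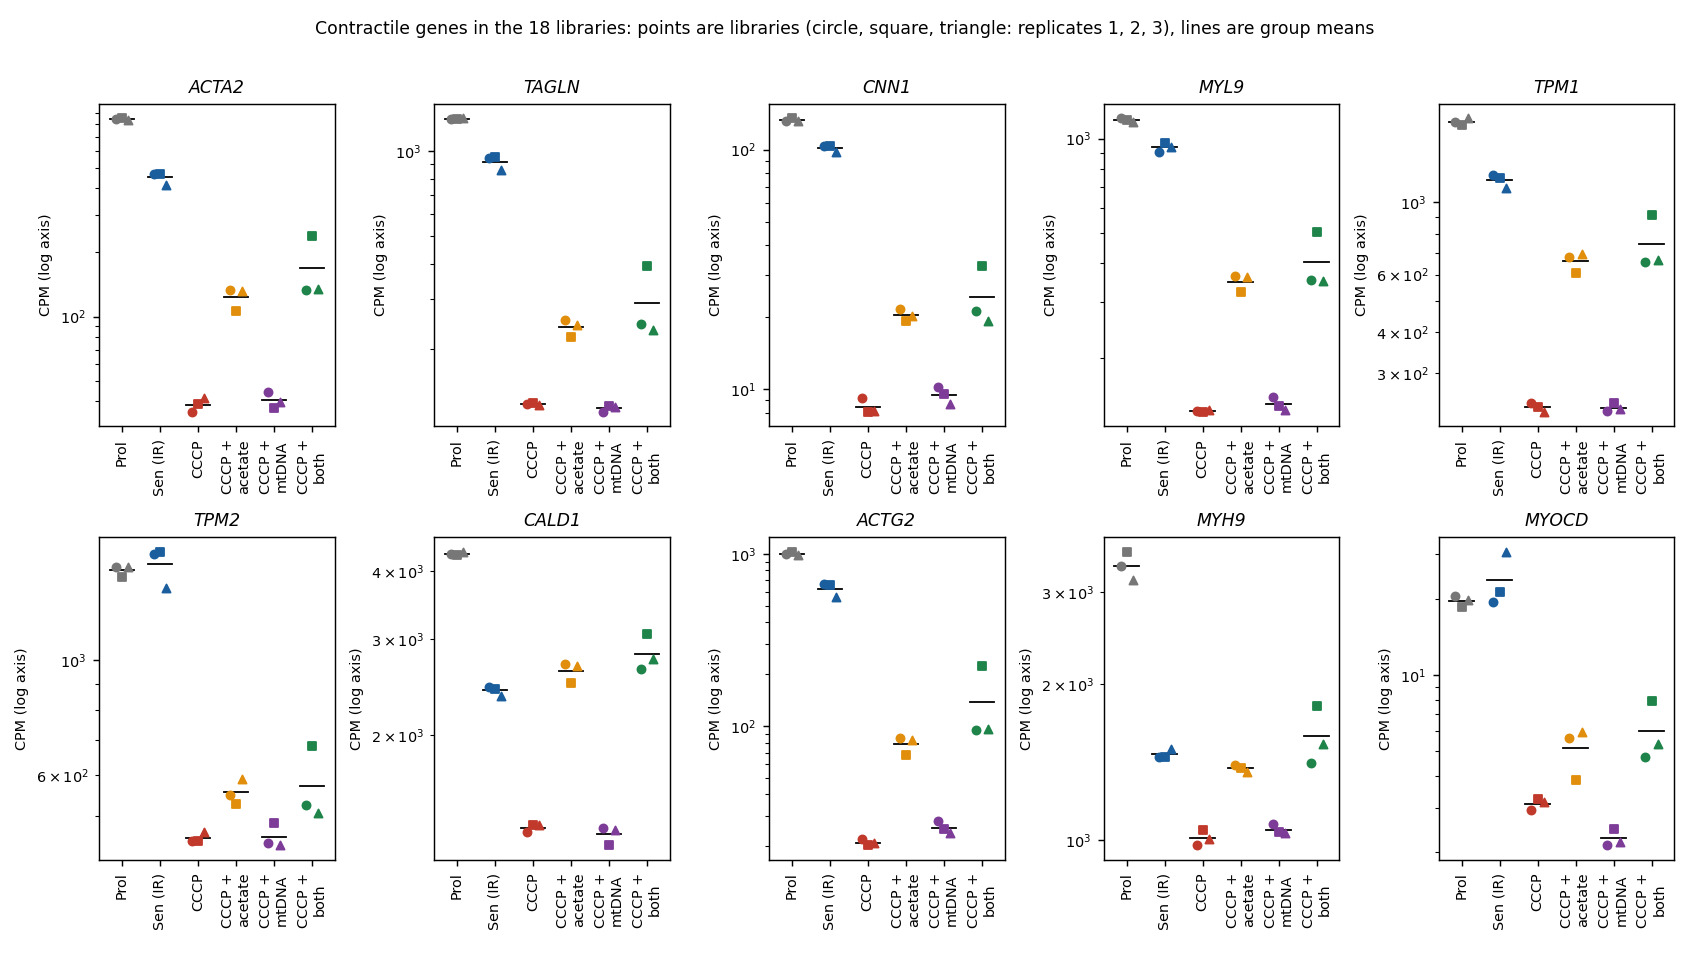
Level of each of the 10 genes in CPM (log axis) in the 18 libraries, in order Prol, Sen (IR), and Sen (IR) with CCCP alone, with acetate, with mtDNA and with both, where points are libraries and lines are group means. ACTG2, CNN1 and ACTA2 fell the furthest with CCCP, the groups with acetate sit above CCCP alone for all 10 genes, the mtDNA group sits with CCCP alone, and the square in the last group is the replicate 2 that stands above its fellows.

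Irradiated cells were compared first with proliferating cells, to ask what senescence did to the set. ACTA2 was at 845, 851 and 834 CPM (counts scaled to library size) in Prol and at 467, 466 and 417 CPM in Sen (IR). Every senescent library was below every proliferating one, a fall of 0.91 on the log2 scale (SE 0.14, 1.88-fold lower, adjusted p = 1.18e-05, edgeR's quasi-likelihood test, as are all adjusted p here). MYH9, the non-muscle myosin heavy chain, changed the most, from 3368, 3586 and 3174 CPM to 1446, 1444 and 1499 CPM, a log2 fold change of -1.21 (SE 0.067, adjusted p = 1.69e-12). CALD1 fell by 0.83 on the log2 scale (SE 0.052, adjusted p = 9.57e-12) and ACTG2 by 0.67 (SE 0.19, adjusted p = 0.00517). TPM1, TAGLN, CNN1 and MYL9 fell by 0.59, 0.50, 0.39 and 0.29 on the log2 scale, and the smallest of these 4, that of MYL9, had an adjusted p of 0.00878. That call on MYL9 was lost when libraries were scaled by total count (adjusted p = 0.0580) and with limma on log2(TPM + 1) (adjusted p = 0.0641).

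TPM2 and MYOCD did not pass the test in this comparison. TPM2 stood at 1515, 1445 and 1514 CPM in Prol and 1607, 1618 and 1379 CPM in Sen (IR), a log2 fold change of 0.04 with a 95% interval from -0.14 to 0.22. MYOCD was at 20.5, 18.6 and 19.7 CPM in Prol and at 19.4, 21.2 and 30.6 CPM in Sen (IR), where replicate 3 stood above the other two (log2 fold change 0.27, interval -0.061 to 0.60, adjusted p = 0.136). With no filter on low counts MYOCD passed as higher (0.24, adjusted p = 0.0456). Of the 10 genes, 8 were lower and 0 higher, where 29.9% of all genes tested were lower and 26.7% higher, and their median log2 fold change was -0.55 against -0.01 over all genes. Of all calls 47.1% were higher, and 58.2% with total-count scaling. The groups overlapped in TPM2 and MYOCD and in none of the other 8 genes. The share of all genes tested whose groups did not overlap is not given here.

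All 10 genes were lower in the senescent cells given CCCP than in those that kept their mitochondria, and ACTG2, CNN1 and ACTA2 fell furthest. Every group without mitochondria was given CCCP and no group with them was. The drug itself and the loss of mitochondria therefore cannot be told apart here. ACTG2 was at 667, 657 and 561 CPM in Sen (IR) and at 21.9, 20.3 and 20.9 CPM in Sen (IR) + CCCP, a 29.9-fold difference (log2 fold change -4.90, SE 0.23, adjusted p = 6.14e-14). ACTA2 was at 35.8, 38.7 and 41.3 CPM after CCCP, 11.7-fold below Sen (IR) (log2 fold change -3.54, SE 0.16, adjusted p = 2.63e-14). These levels are 3.35% and 8.58% of those in senescent cells with mitochondria. CNN1, calponin, went from 103, 103 and 97.3 CPM to 9.16, 8.07 and 8.12 CPM, an 11.95-fold difference (log2 fold change -3.58, SE 0.12, adjusted p = 4.76e-16).

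TAGLN fell 7.17-fold, from 944, 955 and 857 CPM to 128, 129 and 127 CPM. MYL9 fell 6.94-fold, from 906, 969 and 937 CPM to 135, 134 and 136 CPM. MYOCD, the coactivator, fell 7.62-fold, from the values above to 2.93, 3.23 and 3.16 CPM (log2 fold change -2.93, SE 0.18, adjusted p = 5.52e-12). In each of these 3 genes the lowest library with mitochondria was far above the highest without, and replicates of the CCCP group were within a few percent of each other for TAGLN and MYL9.

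The tropomyosins and the widely used members fell less. TPM1 fell 4.91-fold, from 1204, 1183 and 1102 CPM to 244, 237 and 229 CPM, and TPM2 fell 3.38-fold, from the values above to 448, 448 and 466 CPM. CALD1 fell by 0.84 on the log2 scale, from 2454, 2435 and 2363 CPM to 1328, 1364 and 1364 CPM (SE 0.052, adjusted p = 4.23e-12). MYH9 fell least, by 0.53 on the log2 scale, to 978, 1046 and 1006 CPM (SE 0.066, adjusted p = 2.99e-07), and with limma on log2(TPM + 1) its fall was 0.11 and did not pass (adjusted p = 0.173). Across the set the falls thus ran from 0.53 to 4.90 on the log2 scale.

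All 10 genes were lower and 0 higher in this comparison, against 31.3% of all genes lower and 34% higher, with a median log2 fold change of -2.82 against 0.03 over all genes. Total-count scaling in place of TMM moved the median of all genes by 0.26 and log2(TPM + 1) by 0.33 on the log2 scale, and the members' median was then -2.56 and -2.18. Of all calls 52.1% were higher, against 70.6% and 78.8% under those scalings. All 10 genes but MYH9 passed under both. The mtDNA-encoded share moved with the groups, as given above, and so did the fibroblast marker sum, 10190–12220 TPM in Sen (IR) and 5636–5851 TPM in Sen (IR) + CCCP. Their part in the fall was not tested.

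Against proliferating cells, senescent cells without mitochondria were lower in all 10 genes and higher in 0, where 34.1% of all genes were lower and 35.1% higher. The differences ran from 47.6-fold for ACTG2, 21.9-fold for ACTA2 and 15.6-fold for CNN1 to 3.19-fold for CALD1. MYOCD was 6.32-fold lower, and the median log2 fold change of the set was -2.99 against 0.03 over all genes. Total-count scaling moved the median of all genes by 0.35 and log2(TPM + 1) by 0.38, with 72.3% and 78.8% of calls higher in place of 50.7%, and all 10 genes still passed as lower. This comparison shares Sen (IR) + CCCP with the last one and Prol with the first.

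Acetate, from which cells can make acetyl-CoA without mitochondria, was given to the depleted cells to ask what it returned. All 10 genes were higher with acetate than with CCCP alone, and again the actins moved most. ACTG2 was at 85.1, 67.5 and 83.3 CPM with acetate, 3.74-fold over the 20.3 to 21.9 CPM of CCCP alone (log2 fold change 1.90, SE 0.22, adjusted p = 1.22e-07). ACTA2 was at 133, 106 and 132 CPM, 3.20-fold higher (log2 fold change 1.68, SE 0.15, adjusted p = 3.94e-09). TPM1 rose 2.78-fold to 678, 606 and 692 CPM (log2 fold change 1.48, SE 0.087, adjusted p = 3.46e-12). No library with acetate overlapped the CCCP group in any of the 10 genes. How common such a lack of overlap was over all genes tested is not given here.

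MYL9, the myosin light chain, rose 2.59-fold to 363, 324 and 361 CPM, and CNN1 rose 2.40-fold to 21.6, 19.2 and 20.2 CPM. CALD1 rose 1.94-fold to 2699, 2492 and 2678 CPM (log2 fold change 0.96, SE 0.052, adjusted p = 9.15e-13). TAGLN rose 1.87-fold to 254, 221 and 244 CPM. MYOCD rose 1.65-fold to 5.67, 3.85 and 5.94 CPM (log2 fold change 0.72, SE 0.20, adjusted p = 0.00435). Replicate 2 of the acetate group was thus its lowest library here, as it was in every other member but MYH9.

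MYH9 rose by 0.44 on the log2 scale to 1397, 1375 and 1352 CPM (SE 0.066, adjusted p = 5.91e-06). TPM2 moved least, to 549, 529 and 589 CPM from 448 to 466 CPM (log2 fold change 0.29, SE 0.083, adjusted p = 0.00466), and its call was lost with total-count scaling (0.17, adjusted p = 0.0607) and with limma on log2(TPM + 1) (0.19, adjusted p = 0.05725). The pair of tropomyosins thus differed in how far they rose with acetate, 2.78-fold against 1.22-fold. Of all genes tested, 28.8% were higher with acetate and 28.3% lower, and the median log2 fold change was 1.11 for the set and 0.01 over all genes. Total-count scaling moved the median of all genes by -0.12, with a members' median of 0.99. Of all calls 50.5% were higher, against 37.1% with total-count scaling and 39.5% with log2(TPM + 1).

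The level with acetate was then set against senescent cells that kept their mitochondria. The mean CPM with acetate was 12.5% of that in Sen (IR) for ACTG2, 20.1% for CNN1, 21.7% for MYOCD, 26.1% for TAGLN and 27.5% for ACTA2. It was 36.2% for TPM2, 37.3% for MYL9 and 56.6% for TPM1. These 8 genes were lower than in Sen (IR) in the test, where 32.7% of all genes were lower and 33.2% higher, and the smallest of the 8 differences was that of TPM1 (log2 fold change -0.82, SE 0.085, adjusted p = 1.89e-08).

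CALD1 and MYH9 were the exceptions, with mean levels of 108.5% and 93.9% of Sen (IR). CALD1 was higher with acetate by 0.12 on the log2 scale (SE 0.051, adjusted p = 0.0492). That call was lost under 6 of the 11 other settings, among them DESeq2's size factors (adjusted p = 0.104), and under 4 of the 6 fits that left out 1 library (replicate 1 or 3 of either group), where the value ran from 0.10 to 0.18. MYH9 had a log2 fold change of -0.09 (SE 0.066, adjusted p = 0.238), and its sign turned with total-count scaling (0.05) and with limma on log2(TPM + 1) (0.24, adjusted p = 0.00583), since those scalings moved the median of all genes by 0.14 and 0.26. The median of the set was -1.67 against 0.00 over all genes. Of all calls 50.4% were higher, against 61.1% and 73.8% under those scalings.

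**Figure D2:**
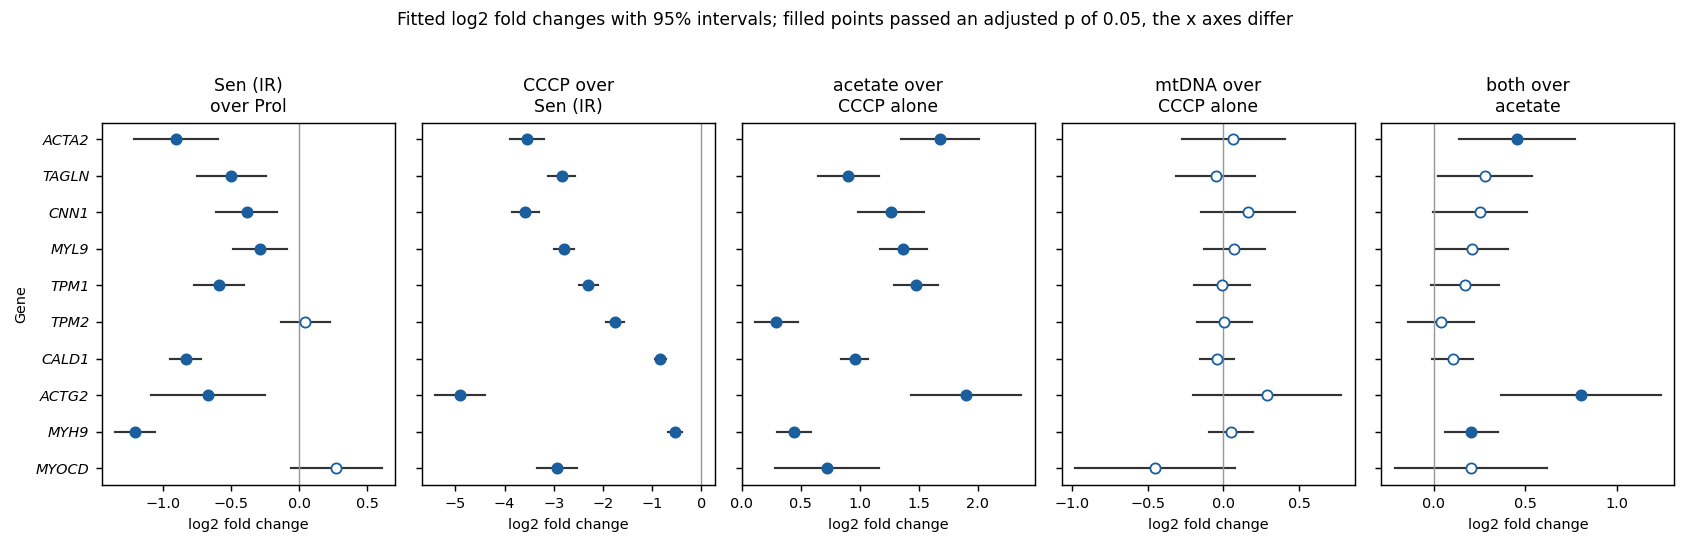
Fitted log2 fold changes of the 10 genes (x axis, with its own range in each panel) and their 95% intervals for 5 comparisons, where filled points passed an adjusted p of 0.05. All 10 points are filled below 0 for CCCP over Sen (IR) and above 0 for acetate over CCCP alone, and none is filled for mtDNA over CCCP alone; MYH9 in the second panel and TPM2 in the third lose their calls on the TPM scale.

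Transfected mtDNA, which stands for the DNA that mitochondria release into the cytosol, was compared with CCCP alone. ACTA2 was at 44.3, 37.4 and 39.5 CPM with mtDNA, overlapping the 35.8 to 41.3 CPM of CCCP alone (log2 fold change 0.07, 95% interval -0.27 to 0.40, adjusted p = 0.826). TAGLN was at 120, 126 and 125 CPM and TPM1 at 230.5, 243 and 233 CPM, with log2 fold changes of -0.05 and -0.01. None of the 10 genes passed in edgeR's test, and 0 had an unadjusted p under 0.05, where 10.7% of all genes were higher and 7.4% lower. DESeq2's Wald test also called 0, with 1 at an unadjusted p under 0.05. Of all calls 59.1% were higher, against 35.7% with total-count scaling and 34.0% with log2(TPM + 1). The signs of ACTA2, TPM2 and MYH9, all near 0, turned under both scalings and that of MYL9 under the second.

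The 2 genes furthest from 0 were ACTG2, at 28.0, 25.3 and 23.9 CPM against 20.3 to 21.9 (log2 fold change 0.29, interval -0.20 to 0.78), and MYOCD, at 2.13, 2.48 and 2.20 CPM against 2.93 to 3.23 (log2 fold change -0.45, interval -0.98 to 0.074). The groups did not overlap in either gene, nor in TAGLN and MYL9, whose log2 fold changes were only -0.05 and 0.07. The share of all genes tested whose groups did not overlap is not given here. ACTG2 and MYOCD passed when only the 6 libraries of these 2 groups were fitted (adjusted p = 0.00895 and 0.0342). They also passed when no filter on low counts was used (adjusted p = 7.72e-04 and 0.0301). The MYOCD counts behind these values were 59 to 69 with mtDNA and 87 to 128 with CCCP alone. For the other 8 genes, the 95% intervals lay within -0.31 (TAGLN) and 0.47 (CNN1) on the log2 scale, and the narrowest was that of CALD1, from -0.15 to 0.07.

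Given together, acetate and mtDNA raised all 10 genes over CCCP alone and over mtDNA alone, and lowered 0. Over CCCP alone the rises ran from 0.33 (TPM2) to 2.70 (ACTG2) on the log2 scale, with a median of 1.35 against -0.04 over all genes, where 30.3% of all genes were higher and 31.4% lower. Over mtDNA alone they ran from 0.33 (TPM2) to 2.42 (ACTG2), with a median of 1.36 against -0.02, where 27.4% of all genes were higher and 29.9% lower. Without replicate 2 of the combination all 10 still passed in both, and ACTA2 was then higher by 1.82 over CCCP alone, against 2.13 with that library. Total-count scaling moved the median of all genes by -0.18 over CCCP alone, where 32.3% of calls were higher in place of 49.1%, and by -0.11 over mtDNA alone, where 36.2% were in place of 47.8%. TPM2 did not pass over CCCP alone with total-count scaling (adjusted p = 0.0842) or limma on log2(TPM + 1) (adjusted p = 0.0571).

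The comparison of the combination with acetate alone asks what mtDNA added once acetate was there. ACTA2 was at 134, 240.1 and 135 CPM with both, against 133, 106 and 132 CPM with acetate, and passed narrowly (log2 fold change 0.46, SE 0.14, adjusted p = 0.0415). ACTG2 was at 94.7, 222 and 95.7 CPM against 67.5 to 85.1 CPM (log2 fold change 0.80, SE 0.20, adjusted p = 0.0102). MYH9 was at 1405, 1816 and 1532 CPM against 1352 to 1397 CPM (log2 fold change 0.20, SE 0.066, adjusted p = 0.0452). In all 3 genes replicate 2 of the combination was the highest library, and its fellows lay just above the acetate group.

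These 3 genes were higher, 7 did not pass and 0 were lower, where 6.57% of all genes were higher and 6% lower. Of all calls 52.2% were higher, against 29.1% with total-count scaling, under which 1 of the 10 genes passed, and 34.9% with log2(TPM + 1), under which 0 did. Replicate 2 stood above the mean of the other 2 combination libraries in all 10 genes, by 2.33 times for ACTG2, 1.78 for ACTA2, 1.64 for TAGLN, 1.61 for CNN1, 1.57 for MYOCD, 1.43 for MYL9, 1.38 for TPM1, 1.32 for TPM2, 1.24 for MYH9 and 1.13 for CALD1. The order of these ratios has the 2 smooth muscle actins first and the 2 widely used genes last. The same library held the higher share of mtDNA-encoded counts given above, whose part in these values was not tested. Without it, 1 of the 10 passed (ACTG2), and ACTA2 was higher by 0.12 (adjusted p = 0.365) and MYH9 by 0.10 (adjusted p = 0.290). Leaving out replicate 2 of the acetate group, its lowest library in every member but MYH9, left 0 calls, and leaving out replicate 1 or 3 of that group left 1.

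On the log2 scale, the difference that mtDNA made beside acetate, less the difference it made without acetate, tests whether the pair acted other than additively. None of the 10 passed, where 0.0765% of all genes had a higher and 0.583% a lower value. The differences ran from 0.04 (TPM2) to 0.66 (MYOCD), with a median of 0.17 against -0.02 over all genes, and all 10 were above 0. MYOCD had the only unadjusted p under 0.05 (adjusted p = 0.422 in edgeR's test). Without combination replicate 2, the values of CNN1 (-0.16), MYL9 (-0.06), TPM2 (-0.11) and ACTG2 (-0.01) fell below 0, and DESeq2's Wald test called 0 of the 10.

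The order of the 6 group means was the same at its head for most of the set. Prol was highest, then Sen (IR), the combination, acetate, and CCCP with or without mtDNA, in ACTA2, TAGLN, CNN1, MYL9, TPM1 and ACTG2. The last 2 places did not pass the test of their difference in any of the 10 genes, nor did the combination and acetate in 7. Without combination replicate 2, the combination's mean CPM was 0.995 times that with acetate for CNN1, 0.930 for TPM2 and 0.980 for MYOCD, and 1.00 times for both TAGLN and TPM1. In TPM2 and MYOCD, Sen (IR) stood above Prol without passing the test. In CALD1 and MYH9 the combination followed Prol directly, ahead of Sen (IR). For MYH9 the combination against Sen (IR) and Sen (IR) against acetate, its next neighbours, did not pass (adjusted p = 0.133 and 0.238).

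**Figure D3:**
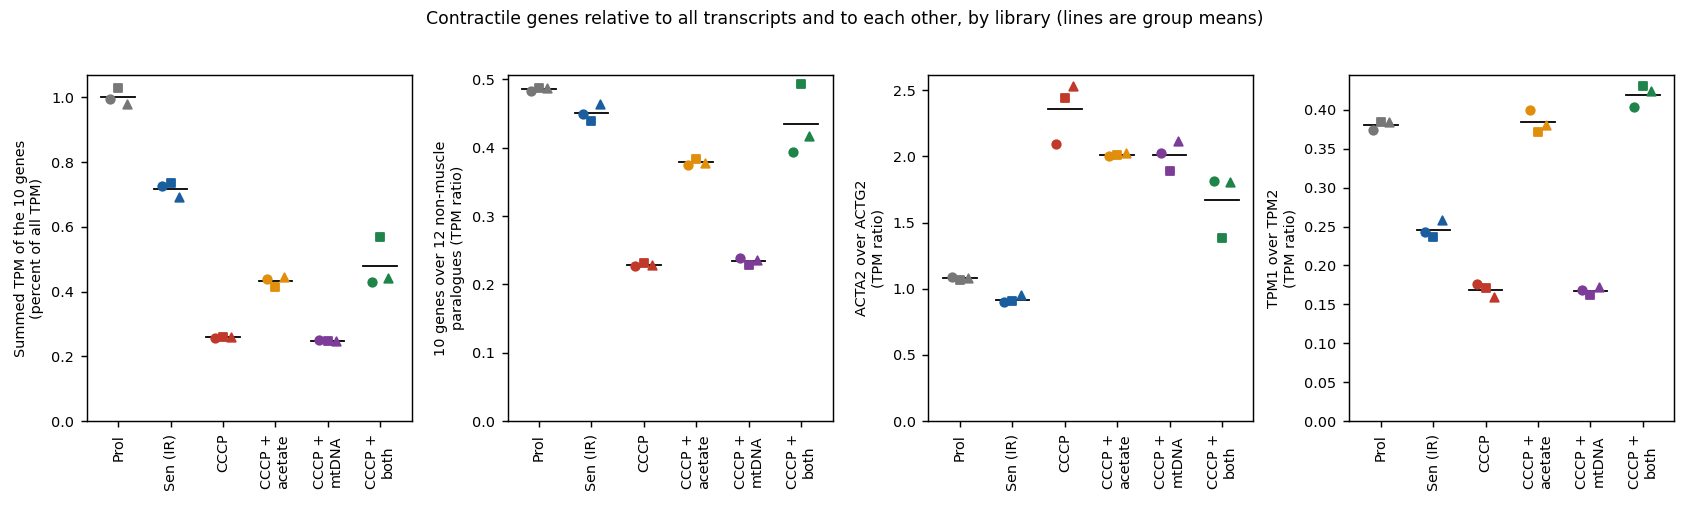
Ratios by library (points) and group mean (lines) on the TPM scale: the summed level of the 10 genes as a percent of all TPM, their sum over that of 12 non-muscle paralogues, ACTA2 over ACTG2, and TPM1 over TPM2. The summed level was lowest in the 2 groups without acetate after CCCP (0.248% and 0.259%), ACTA2 over ACTG2 was above 1.3 in every library given CCCP and at or under 1.09 without it, and TPM1 over TPM2 was higher in the acetate groups than in the other CCCP groups.

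Some members moved apart from each other, which a ratio within a library shows without any scaling between libraries. The TPM ratio of ACTA2 to ACTG2 was 1.08 ± 0.013 in Prol and 0.918 ± 0.029 in Sen (IR), then 2.36 ± 0.23 in Sen (IR) + CCCP, 2.01 ± 0.013 with acetate, 2.01 ± 0.11 with mtDNA and 1.67 ± 0.25 with both (SD, n = 3). The enteric actin thus lost a larger part of its level than α-SMA did after CCCP. The ratio of TPM1 to TPM2 was 0.381 ± 0.0064 in Prol, 0.246 ± 0.011 in Sen (IR), 0.169 ± 0.0086 after CCCP, 0.384 ± 0.014 with acetate, 0.168 ± 0.0048 with mtDNA and 0.420 ± 0.014 with both. With acetate its range overlapped that of Prol, although both genes were below their levels there. With 3 libraries against 3, an exact two-sided permutation test cannot go below p = 0.1, so these ratios are given as values.

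The reads of the actin genes may be a limit here, since ACTA2, ACTG2, ACTB and ACTG1 encode closely similar proteins. Reads that map to more than 1 position were not counted, and how many were lost in this way was not measured. ACTA2 also shares 387 exonic bases with FAS and 1638 with ACTA2-AS1 on the opposite strand, and TAGLN shares 2233 with PCSK7. According to the study's methods, strand was used in counting where a library was strand-specific, but whether these libraries were is not said. FAS, which encodes a death receptor, held 11.8% to 12.7% as many counts as ACTA2 in Prol and 33.6% to 34.5% in Sen (IR). In Sen (IR) + CCCP it held 455% to 537% as many and with acetate 80.8% to 96.3%. PCSK7 held 3.43% to 17.7% as many counts as TAGLN over the 18 libraries, and ACTA2-AS1 0.754% as many as ACTA2 in all. What these overlaps add to or take from the counts was not tested.

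Related genes were taken from 6 lists drawn up from textbook roles. The first holds 12 non-muscle paralogues of the members, the actins, myosins and tropomyosins of every cell, of which 11 were tested. In Sen (IR) against Prol 8 were lower and 0 higher, led by the myosin heavy chain MYH10 (log2 fold change -1.67, SE 0.065, adjusted p = 3.81e-15) and the tropomyosin TPM4 (-0.80), followed by CNN2 (-0.62) and ACTB (-0.57). After CCCP 8 were lower and 0 higher than in Sen (IR), with CNN2 at -1.36, ACTB at -1.20, MYL12A at -1.13 and MYL6 at -1.08, and a list median of -0.85 against -2.82 for the 10 members. Total-count scaling gave 7 lower and 3 higher, with TPM4 among the genes that lost their call. With acetate 7 were higher and 2 lower, CNN3 (0.72) and MYL12A (0.46) above and TAGLN2 (-0.53) and TPM3 (-0.44) below, with a median of 0.22. The summed TPM of the members over that of the 12 paralogues was 0.486 ± 0.0022 in Prol, 0.451 ± 0.012 in Sen (IR), 0.229 ± 0.0026 after CCCP, 0.379 ± 0.0046 with acetate, 0.234 ± 0.0053 with mtDNA and 0.435 ± 0.052 with both.

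Of 18 further smooth muscle genes 15 were tested, and KCNMB1, ACTA1 and ACTC1 were too low. In Sen (IR) 8 were lower than in Prol and 1 higher, with LMOD1, which starts actin filaments, at -1.07 and PDLIM7 at -0.90. After CCCP 13 were lower than in Sen (IR) and 1 higher, with a median of -1.07, and log2(TPM + 1) gave 9 lower and 2 higher. LMOD1 led, falling from 75.2 ± 5.3 to 2.86 ± 0.53 CPM (log2 fold change -4.74, SE 0.23, adjusted p = 6.49e-14), and SYNPO2 followed at -2.24. With acetate 9 were higher and 3 lower, with LMOD1 at 19.4 ± 2.4 CPM (2.78, SE 0.24, adjusted p = 1.83e-09), SYNPO2 at 1.15 and MYLK, the kinase that phosphorylates MYL9, at 0.73. PPP1R14A, an inhibitor of myosin phosphatase, also passed in all 3 comparisons but had at most 40 counts in any library. DES, encoding desmin, passed in the first 2 of them with at most 26 counts in a library and 0 in every acetate library, so no fold is given for it.

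**Figure D4:**
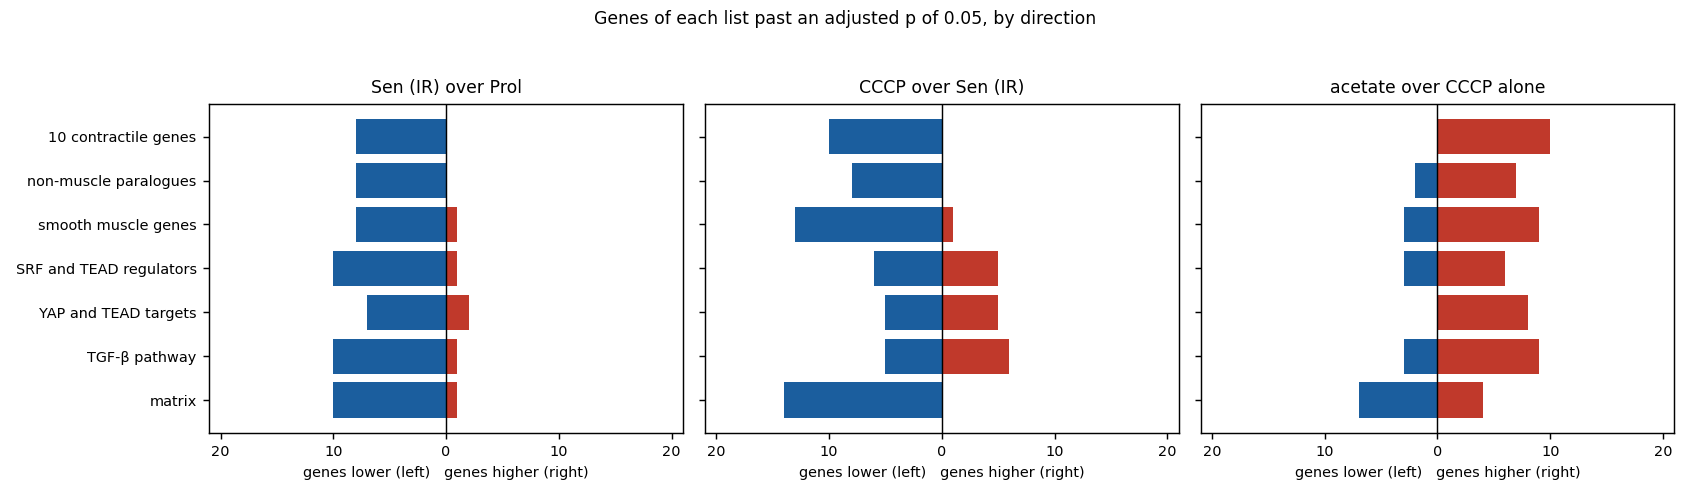
Number of genes of each list past an adjusted p of 0.05, higher to the right and lower to the left, in 3 comparisons: Sen (IR) over Prol, CCCP over Sen (IR) and acetate over CCCP alone. All 10 contractile genes fell with CCCP and rose with acetate, the 14 matrix genes all fell with CCCP while 4 rose and 7 fell with acetate, and the splits of the regulator, YAP and TGF-β lists after CCCP depend on the scaling.

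Among the genes that act on the CArG box and on TEAD sites, SRF fell after CCCP from 54.2 ± 2.9 to 33.8 ± 2.7 CPM (log2 fold change -0.68, SE 0.059, adjusted p = 1.02e-09) and rose with acetate to 48.8 ± 1.6 CPM (0.53, SE 0.058, adjusted p = 8.29e-08). The coactivator MRTFA fell by 0.36 on the log2 scale after CCCP, a call lost with total-count scaling (adjusted p = 0.173), and MRTFB did not pass (-0.04, adjusted p = 0.661) but was called higher with total-count scaling (0.22, adjusted p = 0.0267). KLF4, a repressor of smooth muscle genes, rose from 4.15 ± 0.54 to 18.2 ± 1.8 CPM after CCCP (2.15, SE 0.12, adjusted p = 8.67e-13), fell with acetate to 10.1 ± 0.083 CPM (-0.86, SE 0.11, adjusted p = 4.09e-07) and rose with mtDNA to 34.1 ± 2.3 CPM (0.90, SE 0.10, adjusted p = 8.30e-07). TEAD4, WWTR1 (which encodes TAZ) and TEAD1 rose after CCCP by 1.00, 0.94 and 0.87. With acetate TEAD4 fell by 0.78 and SCAI, an inhibitor of MRTFA, rose by 0.60. Of the 12 regulators, 1 was higher and 10 lower in Sen (IR) against Prol, 5 and 6 after CCCP, and 6 and 3 with acetate, with medians of -0.49, -0.12 and 0.13. After CCCP, total-count scaling gave 6 higher and 3 lower, with a median of 0.14, and log2(TPM + 1) gave 8 and 2.

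The 11 targets of YAP and TEAD were split. In Sen (IR) 2 were higher and 7 lower than in Prol, with AMOTL1 at -0.83, AJUBA at -0.79, AXL at -0.76 and ANKRD1 at 0.78. After CCCP 5 were higher and 5 lower, among the latter ANKRD1 (-2.17), CCN2 (-2.10), CCN1 (-1.63) and F3 (-1.19). CCN2, encoding a matrix protein and a classical target of this pathway, went from 885.5 ± 133 to 207 ± 9.1 CPM and was at 787 ± 61 CPM with acetate. With acetate 8 were higher and 0 lower, with CCN2 at 1.93, ANKRD1 at 1.503, DLC1 at 1.12 and F3 at 0.94. With mtDNA 4 were higher and 1 lower, with ANKRD1 at 0.47, DLC1 at 0.30, AMOTL2 at 0.26 and F3 at -0.27.

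Of 14 TGF-β pathway genes, 1 was higher and 10 lower in Sen (IR) against Prol, with the receptor TGFBR2 at 0.98, SMAD4 at -0.74 and LTBP2 at -0.66. After CCCP 6 were higher and 5 lower, with LTBP2, a protein of matrix microfibrils, at -1.69, the ligand TGFB2 at -1.09 and TGFBR2 at -0.93. With acetate 9 were higher and 3 lower, with the feedback inhibitor SMAD7 at 0.78, and TGFB3 (-0.94) and TGFBR3 (-0.70) below. The list medians were -0.40, 0.02 and 0.29, and total-count scaling gave 8 higher, 5 lower and a median of 0.28 after CCCP.

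The matrix list, of which myofibroblasts are a main source, parted from the contractile genes with acetate. In Sen (IR) 1 of its 14 genes was higher and 10 lower than in Prol, with BGN at -1.49, COL1A1 at -1.16 and COL5A1 at -1.09. After CCCP all 14 were lower, also under both other scalings, with POSTN at -3.56, COL3A1 at -3.07 and COL1A1 at -2.95, and a median of -1.64. With acetate 4 were higher and 7 lower, with BGN, encoding biglycan, at 2.00, FAP at -1.91 and COL3A1 at -1.46, and a median of -0.32. COL3A1 was at 2425 ± 311 CPM in Sen (IR), 289 ± 40 CPM after CCCP and 105 ± 14 CPM with acetate (adjusted p = 6.15e-07), where ACTA2 rose. Against Sen (IR), 12 of the 14 matrix genes were lower with acetate and 2 higher, with COL3A1 at -4.53, POSTN at -3.92, COL1A2 at -3.54 and COL1A1 at -3.23. ELN, encoding elastin, passed in each of the first 3 comparisons but had at most 15 counts in any senescent library.

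With mtDNA few of these genes moved. In the matrix list 4 were lower and 0 higher than with CCCP alone, with COL1A1 at -0.72, COL3A1 at -0.57, COL1A2 at -0.47 and COL5A1 at -0.27. With both against acetate alone, KLF4 (0.67), ANKRD1 (0.57), FN1 (0.36) and PDLIM5 (0.24) rose and SCAI (-0.29) and MYL6 (-0.15) fell, and these 6 also passed without combination replicate 2, at 0.53, 0.49, 0.18, 0.16, -0.27 and -0.17. SYNPO2 (0.51), TGFB2 (0.20), AMOTL1 (0.15) and DES (at most 5 counts in a library) passed as higher only with that library. Without it SYNPO2 was at 0.22 (adjusted p = 0.128), TGFB2 at 0.14 (adjusted p = 0.0758) and AMOTL1 at 0.13 (adjusted p = 0.119), and PDLIM7 (-0.20), F3 (-0.28), COL1A1 (-0.34) and COL1A2 (-0.26) passed as lower and YAP1 (0.14) as higher. None of the tested genes of the 6 lists passed in the interaction of acetate and mtDNA.

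Over the 18 libraries, the members' log2 CPM moved together, which is a description of 6 group means and not of independent points. Pearson's r between pairs of members ran from 0.69 (TPM2 with CALD1) to 1.00 (TAGLN with CNN1, 0.997). ACTA2 followed ACTG2 and MYL9 most closely, with r of 0.995 for each. Outside the set, the 5 tested genes with the highest r with ACTA2 were INMT (0.995), a methyltransferase of lung, TMEM176B (0.994), CAPZB (0.993), which caps actin filaments, GPRC5B (0.993) and SORT1 (0.992), a sorting receptor. CAPZB, the one of the 5 that binds actin, had mean levels of 359 CPM in Prol, 316 in Sen (IR), 147 after CCCP, 212 with acetate, 154 with mtDNA and 221 with both.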

How the data were processed

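RNA-seq of IMR90 fibroblasts gave 18 libraries in 6 groups of 3, assigned by their labels. Per the labels and the study's methods, the authors used Trimmomatic 0.36 for trimming, STAR 2.5.2b for alignment (GRCh38) and featureCounts (Subread 1.5.2), which kept reads with a unique position, and deposited raw counts per gene. The authors also deposited TPM, which correct for gene length and library size. Strand was used in counting where a library was strand-specific, and whether these were is not given in the sources used here.

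One model of 6 group means was fitted in edgeR 4.0.16 (R 4.3.3), with TMM scaling, filterByExpr (16994 of 57500 genes kept) and no replicate block. Quasi-likelihood tests were two-sided with Benjamini-Hochberg adjustment over the genes tested and a threshold of 0.05. Standard errors are the fold change over the root of F, and CPM use TMM-scaled library sizes. limma 3.58.1 on log2(TPM + 1) or log2(TPM + 0.1) and DESeq2 1.42.0 were alternatives, beside those in the closing section. The fit was tested on simulated data. The genes, the lists and the tests were chosen with earlier results of these data known. The genes named are all 10 members, up to 4 called genes of each of the 6 lists with the largest changes, and the 5 most correlated with ACTA2. Other list genes, such as DES, ELN, PPP1R14A, MRTFA, MRTFB, MYLK and those whose call changed without combination replicate 2, were named after their values were seen. The scalings of the gene lists, and the lists and group order without combination replicate 2, were added after the data were seen. Total counts of 24624886 to 46224280 set the counting precision, and start sites come from GENCODE on GRCh38. Some items are not reported here.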

Additional observations from a re-analysis of the deposited data

How the results depend on the processing

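Of 1760 values of the 10 genes under other settings, 1654 kept their direction and their side of the threshold, 53 kept the direction and lost the call, 20 gained one and 33 changed sign. The number of the 10 genes called changed as follows. DESeq2 with a nominal p under 0.05 and an absolute log2 fold change over 0.5 gave 5 in place of 8 in Sen (IR) over Prol, 1 in place of 3 for both over acetate, and 1 in place of 0 for the interaction. With no filter on low counts it was 2 in place of 0 for mtDNA over CCCP alone, 7 for both over acetate and 3 for the interaction. With only the groups compared it was 2 for mtDNA over CCCP alone and 0 for both over acetate, where total-count scaling gave 1, limma on log2(TPM + 1) 0, limma on log2(TPM + 0.1) 0, and leaving out 1 library 0 to 6. The cause was not tested.

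Signs changed for values near 0. For mtDNA over CCCP alone, total-count scaling gave -0.0021 for ACTA2, -0.063 for TPM2 and -0.017 for MYH9. limma on log2(TPM + 1) gave -0.0094 for ACTA2, -0.0025 for MYL9, -0.069 for TPM2 and -0.022 for MYH9. With log2(TPM + 0.1) the values were -0.0096, -0.0025, -0.070 and -0.022. TPM2 was -0.0071 with no filter, -0.011 with at least 10 counts in every library and -0.011 with only the groups compared. For both over acetate, TPM2 was -0.017 with total count, -0.0040 with log2(TPM + 1) and -0.0040 with log2(TPM + 0.1). MYH9, acetate over Sen (IR), was 0.046, 0.24 and 0.24 in that order. Leaving out 1 library, ranges that crossed 0 were -0.019 to 0.11 for TPM2 in Sen (IR) over Prol. For mtDNA over CCCP alone they were -0.023 to 0.023 for TPM1, -0.033 to 0.042 for TPM2 and -0.048 to 0.00043 for CALD1. For both over acetate they were -0.10 to 0.12 for TPM2 and -0.027 to 0.36 for MYOCD, and for the interaction -0.16 to 0.22 for CNN1, -0.056 to 0.22 for MYL9, -0.11 to 0.11 for TPM2 and -0.0089 to 0.72 for ACTG2.

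Over all genes, the DESeq2 rule gave 5709 calls in place of 9628 in Sen (IR) over Prol, 7380 of 11088 for CCCP over Sen (IR), 5522 of 9709 for acetate, 1758 of 3071 for mtDNA, 6460 of 10487 for both over CCCP alone, 1290 of 2136 for both over acetate and 5760 of 9748 for both over mtDNA. Both over acetate fell as low as 1241 with 1 library left out. The interaction had 112 calls, 413 with no filter, 284 by DESeq2's Wald test, 622 by the DESeq2 rule, and 55 to 403 with 1 library left out.

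Same-numbered libraries did not deviate together (r from -0.082 to 0.092 over 45 pairs, 0 over 0.1). No deviation shared by replicate number was thus seen, which cannot exclude that the numbers pair the samples. With the replicate number as a block, 2 in place of 3 genes were called for both over acetate, ACTA2 having an adjusted p of 0.0549, and CALD1 had 0.0563 for acetate over Sen (IR). The number of genes called was 8 in Sen (IR) over Prol, 10 for CCCP over Sen (IR), for CCCP over Prol, for acetate and for both over CCCP alone and over mtDNA alone, and 0 for mtDNA and the interaction, as without the block.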
